A study of Mus musculus with 5 samples.

Results

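Prss1, Prss3, Klk1 and Cckar were followed as 4 acinar cell genes in mouse pancreas, chosen by name from the 1457 genes of the table analysed. All 4 were found, and all 4 met the condition for testing, a value not under 1 in 2 or more libraries, as did 1429 of the 1457 genes. Messenger RNA of whole pancreas had been sequenced from female mice labelled C57BL/6, aged 8 weeks. The miR-21-/- mice (KO, 2 libraries, replicates 1 and 3) and wild-type mice (WT, 2 libraries, replicates 1 and 2) received intraperitoneal caerulein at 50 µg/kg. Another wild-type library, replicate 1, came from a saline-treated mouse, and no KO saline library was analysed here. MiR-21 was not among the genes analysed, so its deletion was not checked. Tissue was taken 24 h after the first caerulein injection. The labels say neither whether each library is a separate mouse nor in which cells miR-21 is missing, so the p-values may measure technical spread only.

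Acinar cells of the exocrine pancreas make digestive proteases as inactive zymogens and release them when cholecystokinin binds its receptor. Caerulein acts on the same receptor, and doses above those that drive secretion cause acute pancreatitis in rodents, in which trypsinogen is activated early inside the acinar cell. Prss1 and Prss3 encode trypsinogens, the zymogens of trypsin, and lie on mouse chromosome 6 in a cluster of near-identical genes. Klk1, on chromosome 7, encodes tissue kallikrein, a protease that releases kinins from kininogen. Cckar, on chromosome 5, encodes the cholecystokinin A receptor, which couples to Gq and raises cytosolic calcium. In bulk tissue, fewer acinar cells and less RNA per acinar cell cannot be told apart.

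The table allows little check of the acinar label. Of 75 symbols listed for trypsinogens, kallikreins and other digestive enzymes, 3 were among the genes analysed, and they are Prss1, Prss3 and Klk1. None of the 31 symbols for amylases, lipases, elastases, carboxypeptidases and similar products was analysed here, nor any of 20 for trypsin inhibitors and trypsinogen-activating proteases. The 4 genes therefore do not describe the acinar enzymes as a class.

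The trypsinogens and the kallikrein share sequence with relatives, which limits what a value assigned to each can mean. The coding sequences of Prss1 and Prss3 in the GENCODE M21 annotation are both 741 bases long and identical at 714 of them (96.4%), with a longest identical run of 173 bases. The 60 coding bases (positions 586 to 645 from the start codon, chromosome 6) with the most differences between them are shown, since only reads over such bases separate the genes. Capitals mark the 6 differing bases.
Prss1: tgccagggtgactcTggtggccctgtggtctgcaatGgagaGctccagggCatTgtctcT
Prss3: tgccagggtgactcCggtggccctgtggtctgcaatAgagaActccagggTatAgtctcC
Of all 36-base stretches of the Prss1 transcript, 65.6% also occur in another annotated gene, and 30.9% occur in Prss3. For Prss3 the share is 72.7%, with Gm10334 the closest relative (98.9% identity over aligned transcript bases). For Prss1 the closest is Gm5771 (97.8%). Klk1 shares 40.1% of its stretches with other genes, with Klk1b5 closest (94.4%). Cckar shares 0.30%. Neither the read length nor the handling of reads with several matches is stated in the labels, so the values of Prss1, Prss3 and Klk1 are uncertain between relatives, and that of Cckar much less so.

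The sequence just upstream of each gene's start is shown as description. Whether it bears on the differing values of Prss1 and Prss3 was not tested. The 250 bases before the start come from RefSeq on GRCm38.p6, a newer build than the mm8 named for the files, and 3 of the 4 genes had an entry. Capitals mark matches to the E-box letters CACCTG, the TC-box letters TTTCCC and the TATA box letters TATAAA, each searched on both strands, so that a reverse match shows the complementary letters. An E-box and a TC-box together form the element bound by PTF1, a transcription factor complex of acinar cells.
Prss1, chr6:41458680-41458929, plus strand: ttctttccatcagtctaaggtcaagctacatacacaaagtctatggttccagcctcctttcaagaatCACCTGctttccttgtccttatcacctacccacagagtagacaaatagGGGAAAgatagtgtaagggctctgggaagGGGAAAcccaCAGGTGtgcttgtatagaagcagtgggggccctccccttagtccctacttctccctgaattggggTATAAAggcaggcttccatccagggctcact
Prss3, chr6:41377614-41377863, minus strand: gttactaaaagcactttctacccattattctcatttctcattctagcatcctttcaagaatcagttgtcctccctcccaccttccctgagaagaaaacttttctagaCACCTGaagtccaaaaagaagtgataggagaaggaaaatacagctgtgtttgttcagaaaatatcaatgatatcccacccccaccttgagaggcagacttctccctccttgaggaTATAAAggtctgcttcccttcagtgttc
Klk1, chr7:44225110-44225359, plus strand: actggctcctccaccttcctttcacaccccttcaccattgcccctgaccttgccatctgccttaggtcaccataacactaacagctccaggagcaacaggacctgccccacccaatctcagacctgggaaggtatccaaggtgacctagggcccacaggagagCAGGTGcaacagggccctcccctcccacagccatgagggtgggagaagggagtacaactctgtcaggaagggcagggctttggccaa
Prss1 held 2 E-box and 2 TC-box matches and a TATA box whose match begins 31 bases before the start. Prss3 held 1 E-box and a TATA box beginning 28 bases before the start, and Klk1 held 1 E-box, and no marked match overlapped another. Over 32851 RefSeq windows of the same length, 17.2% held an E-box match, 21.9% a TC-box match and 12.4% a TATA box match. These matches describe letters and not binding.

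The microRNA deleted in the KO mice is shown with its seed, bases 2 to 8, in capitals (RefSeq, GRCm38.p6, chr11:86584120-86584141, minus strand).
mmu-miR-21a-5p: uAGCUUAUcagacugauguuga
Its seed match, ATAAGCT, was present 0 times in the annotated protein-coding transcripts of each of the 4 genes. Those transcripts were 755 to 954 bases long for Prss1, Prss3 and Klk1, and 2930 and 3230 bases long for Cckar. No share of other transcripts with a match is given, so the absence cannot be weighed against chance. Whether the microRNA acts on these genes was not tested.

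Values carry no stated unit, and the lowest, 0.01, appears to stand for no measured signal. Read depth is unknown. The listed values sum to 32770 and 34393 in KO caerulein libraries 1 and 3, 38628 and 23255 in WT caerulein libraries 1 and 2, and 2818 in the saline library, where 37.1% of genes are at 0.01. The rows stand in falling order of the ratio of the WT caerulein mean to saline, and every gene has a caerulein library in which it is 2.53-fold or more above or below saline, so the table appears to be chosen on that difference. Across the 1429 tested genes, Spearman's rho was 0.73 between KO library 3 and WT library 1 and 0.74 between KO library 1 and WT library 2, against 0.45 between the KO libraries and 0.35 between the WT caerulein libraries. Genes are not independent replicates, and the labels give no batch.

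Prss1 was the only one of the 4 genes whose values did not overlap between the genotypes. It was 6.5 and 12.28 in KO caerulein libraries 1 and 3, and was listed at 0.01 in both WT caerulein libraries and in the saline library. KO lay above WT without overlap for 68 of 1429 tested genes (4.76%). Prss1 was the only one of 1457 genes at 0.01 in all 3 WT libraries. Of 23 genes at 0.01 in both WT caerulein libraries it alone exceeded 1 in both KO libraries, and in the other direction 2 of 26 genes at 0.01 in both KO libraries exceeded 1 in both WT caerulein libraries. A gene at 0.01 in every WT library can enter a table of differences from saline only through the KO libraries, and Prss1 met the filter on low values only through them.

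On the log2(value + 1) scale the Prss1 difference between KO and WT caerulein was 3.31. Since Prss1 met the filter only through its KO values, neither limma nor a permutation test can decide whether it differed. No p-value is therefore given for it. An exact two-sided permutation test of 2 libraries against 2 cannot give a p under 0.3333 in any case. No fold is given, because the WT values are at the lowest value listed.

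Within the KO libraries Prss1 stood in a near-constant proportion to its relative Prss3. This was not particular to relatives, since Cckar was 10.95% of Prss3 in KO library 1 and 10.71% in KO library 3. Prss1 was 4.33% of the Prss3 value in KO library 1 and 4.24% in KO library 3. WT caerulein library 1 had the highest Prss3 value of all, 384.9, and the mean KO proportion would put Prss1 at 16.5 there, whereas it was listed at 0.01. In WT caerulein library 2 the same proportion would give 0.30, close to the smallest value above 0.01 in that library (0.21). In saline it would give 0.08, where the smallest value above 0.01 was 0.02. The part of shared sequence in this pattern was not tested.

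Of the 4 genes Prss3 had the largest ratio between the WT caerulein libraries. It was 150.18 and 289.84 in KO caerulein libraries 1 and 3, 384.9 and 6.97 in WT caerulein libraries 1 and 2, and 1.9 in saline. Both KO values lie between the WT ones, so the genotypes overlap. That ratio was 55.2, ranked 6 among 1357 genes above 0.01 in both. On the log2(value + 1) scale the gap of 5.60 ranked 1 of 1457 genes, where the median gene differed by 0.88. The mean was 220.01 ± 98.8 in KO and 195.94 ± 267 in WT caerulein libraries (SD, n = 2 each).

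Klk1 followed the same order of libraries. It was 141.85 and 303.03 in KO caerulein libraries 1 and 3, 562.8 and 22.23 in WT caerulein libraries 1 and 2, and 8.93 in saline. WT caerulein library 1 exceeded library 2 by a ratio of 25.3, a log2(value + 1) gap of 4.60 that ranked 7 of 1457. Again both KO values fell between the WT ones. The mean was 222.44 ± 114 in KO and 292.52 ± 382 in WT caerulein libraries (SD, n = 2 each).

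Cckar, the receptor through which caerulein acts, was steadier. It was 16.44 and 31.05 in KO caerulein libraries 1 and 3, 35.72 and 9.29 in WT caerulein libraries 1 and 2, and 0.42 in saline. The ratio of WT library 1 to library 2 was 3.85, and its log2 gap of 1.84 ranked 356 of 1457. The KO values lie inside the WT range, and all 4 caerulein libraries lie above saline.

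**Figure D1:**
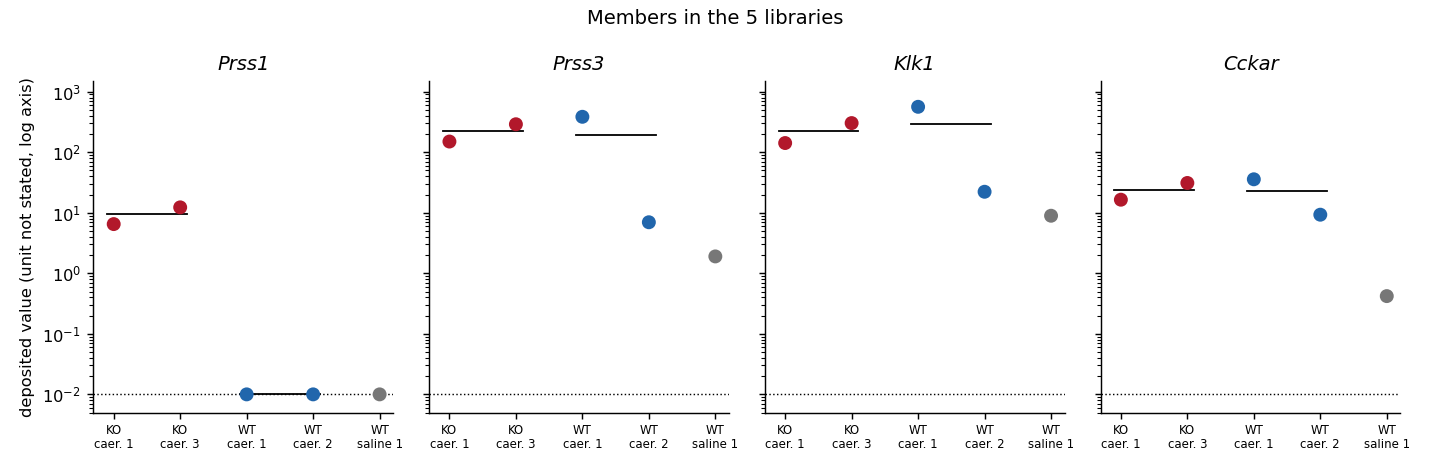
Deposited values (unit not stated, log axis) of Prss1, Prss3, Klk1 and Cckar in KO caerulein (red), WT caerulein (blue) and WT saline (grey) libraries, with bars at the mean of each pair and a dotted line at 0.01. Prss1 is above 0.01 in the KO libraries alone, and for the other genes WT caerulein library 1 is the highest and library 2 the lowest of the caerulein libraries.

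The KO libraries differed from each other by nearly the same factor for every gene followed. The ratio of KO library 3 to KO library 1 was 1.89 for Prss1, 1.93 for Prss3, 2.14 for Klk1 and 1.89 for Cckar, against a median of 0.90 over 1411 genes above 0.01 in both. Of those genes 19.8% had a ratio at least as high as Klk1 and 22.8% at least as high as Cckar, so ratios of this size were not rare. In WT caerulein mice the factor ranged from 3.85 for Cckar to 55.2 for Prss3, and the median gene was at 1.89.

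**Figure D2:**
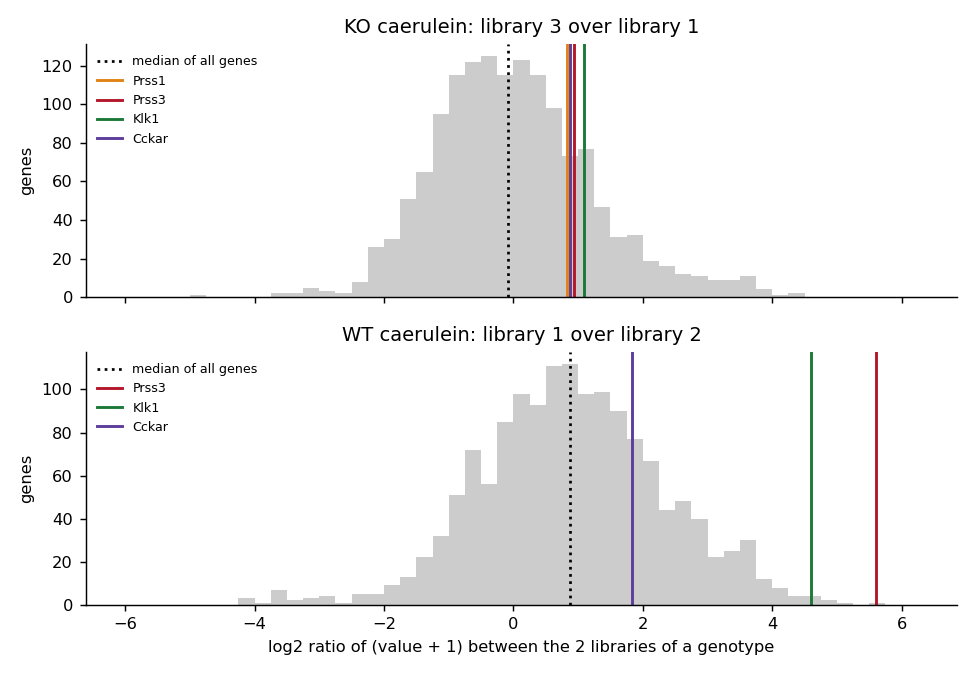
Histograms of the log2 ratio of (value + 1) between the libraries of each genotype over 1457 genes, with the median dotted and the followed genes as coloured lines (Prss1 is left out of the WT panel, where both values are 0.01). The genes stand together between 0.82 and 1.09 in KO, while in WT Prss3 at 5.60 and Klk1 at 4.60 lie at the far right and Cckar at 1.84 does not.

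Setting the genes against each other inside a library removes any scaling of that library. The value of Klk1 over that of Prss3 was 0.94 and 1.05 in KO libraries 1 and 3, 1.46 and 3.19 in WT caerulein libraries 1 and 2, and 4.70 in saline. Cckar over Prss3 was 0.110 and 0.107 in the KO libraries, 0.093 in WT caerulein library 1, 1.33 in WT caerulein library 2 and 0.221 in saline. For Cckar over Prss3, 3 caerulein libraries thus lay close together and WT library 2 lay far above them. These are ratios between genes of unequal length in an unstated unit, so only their change from library to library can be read.

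**Figure D3:**
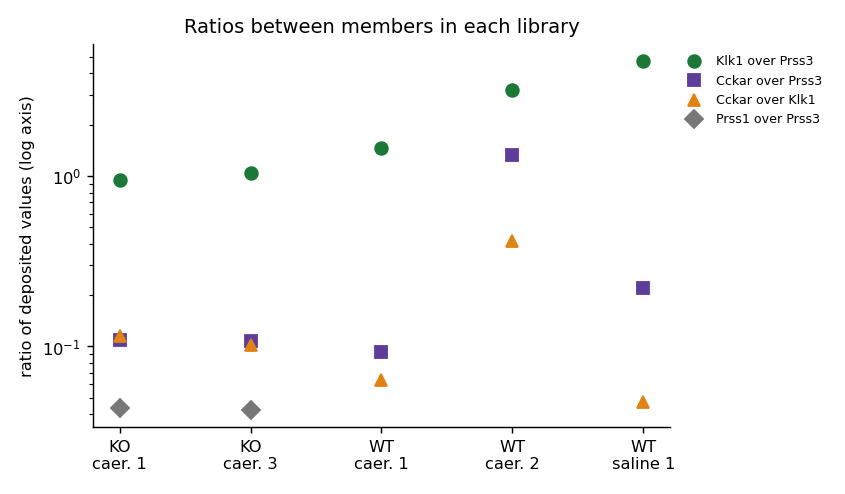
Ratio of deposited values between pairs of the followed genes in each library (log axis), with Prss1 over Prss3 drawn only where Prss1 is above 0.01. WT caerulein library 2 stands apart for Cckar over Prss3 (1.33, against 0.093 to 0.110 in the other caerulein libraries).

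Markers of other cell types were set beside the Prss3 and Klk1 values. Of 23 stellate cell and fibroblast markers, 12 were measured, and their values summed to 289.28 and 478.2 in KO libraries 1 and 3, 1002.92 and 216.66 in WT caerulein libraries 1 and 2, and 4.96 in saline. Col3a1 weighed most in these sums, at 73.25 and 271.09 in KO, 525.1 and 50.15 in WT caerulein and 0.38 in saline. All 12 were higher in WT library 1 than in library 2, as were 1063 of the 1457 genes, with a median log2(value + 1) ratio of 1.46 against 0.88 over all genes. Between the KO libraries, 7 of the 12 were higher in library 3 than in library 1, as were 664 of the 1457 genes. Of 23 monocyte and macrophage markers, 9 were measured, with sums of 447.52 and 382.84 in KO, 476.66 and 340.51 in WT caerulein and 3.19 in saline. Of these 9, 7 were higher in WT library 1, with a median ratio of 0.71, below that of all genes. None of these markers was at 0.01 in a caerulein library. In saline 6 stellate markers (Col5a2, Col6a3, Fn1, Thbs1, Pdgfrb and Fbn1) and 5 macrophage markers (Emr1, Mrc1, Ly6c2, Cd163 and Lcp1) were. The part of these cells in the Prss3 and Klk1 values was not tested.

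The comparison of KO with WT caerulein mice asked whether the loss of miR-21 changed these genes after treatment. Limma called 0 of the 4 genes, and 0 of 1429 tested (0%; 7 at an unadjusted p under 0.05). Prss1 is in these counts, but its result is not read as a test. Prss3 differed by 1.92 on the log2 scale (SE 1.04, 95% interval −0.15 to 3.98), Klk1 by 0.86 (SE 0.98, −1.07 to 2.80) and Cckar by 0.28 (SE 0.86, −1.40 to 1.96), each with a limma adjusted p = 0.9997. Their exact permutation p was 1.0. For Klk1 the sign depends on the scale, since its mean of untransformed values was lower in KO than in WT mice. The median of all tested genes was 0.10. The intervals reach beyond a difference of 1 on both sides for Klk1 and Cckar, so differences of that size in either direction are within the error. Limma draws each SE towards a trend over all genes. The intervals of Prss3 and Klk1 therefore understate their own spread between the WT caerulein libraries.

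Those differences rested on which WT library was used. Without WT caerulein library 2, Prss3, Klk1 and Cckar had differences of −0.88, −1.44 and −0.64. Without WT caerulein library 1 they were 4.72, 3.17 and 1.20, and Prss3 alone of the 4 then passed (limma adjusted p = 0.02919, against 0.9985 to 1 in the other settings run). Between the libraries that resembled each other, KO library 3 over WT library 1 was 0.75 for Prss3, 0.54 for Klk1 and 0.87 for Cckar, where the median gene was at 0.75. KO library 1 over WT library 2 was 21.5 for Prss3, 6.38 for Klk1 and 1.77 for Cckar, where the median was 1.46.

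**Figure D4:**
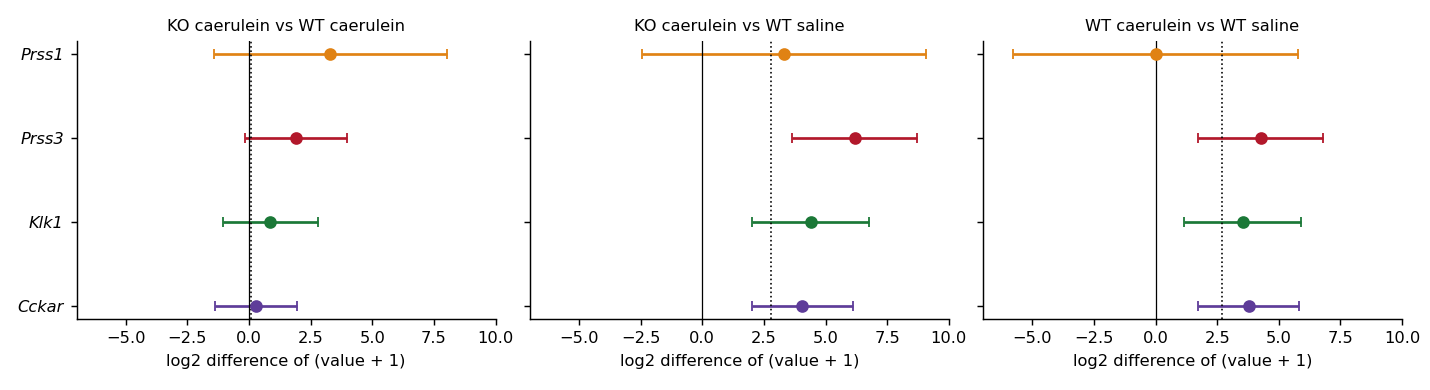
Log2 differences of (value + 1) with 95% intervals from limma for the 4 genes in 3 comparisons, with a dotted line at the median of all tested genes. All intervals cross 0 for KO against WT caerulein, and those of Prss3, Klk1 and Cckar lie above 0 in both comparisons with saline. The intervals of Prss1 are drawn but not read as tests, since it met the filter only through its KO values.

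Against the single saline library, 3 of the 4 genes were called higher in each genotype, in a table that appears to be chosen for such differences. That library is wild type, so the KO comparison changes genotype and treatment together, and their parts cannot be told apart. In KO caerulein mice 861 of 1429 genes (60.3%) were called higher and 2 lower (0.14%), and in WT caerulein mice 819 (57.3%) were called higher and 0 lower. The count of 3 of 4 is therefore near the background. The log2 difference from saline for Prss3 was 6.18 (SE 1.27, limma adjusted p = 0.0002764) in KO mice and 4.26 (SE 1.27, limma adjusted p = 0.006024) in WT mice. For Klk1 the differences were 4.39 (SE 1.20, limma adjusted p = 0.002127) in KO and 3.53 (SE 1.20, limma adjusted p = 0.01214) in WT mice. Cckar was higher by 4.06 (SE 1.05, limma adjusted p = 0.0012) in KO and by 3.78 (SE 1.05, limma adjusted p = 0.002603) in WT mice. The medians of all tested genes were 2.80 and 2.71. These comparisons share the saline library, whose spread is assumed to be that of the caerulein groups. In limma each SE is drawn towards a trend over all genes. It does not fully reflect the gaps between the WT caerulein libraries, 5.60 for Prss3 and 4.60 for Klk1. The adjusted p-values of these genes may therefore be too small.

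Prss1 differed from saline by 3.31 in KO mice and by 0 in WT mice, and since it met the filter only through its KO values, no test of it against saline is given. The calls of the other genes changed with the scaling and with the libraries used. With equal library sums and with quantile normalization 0 of the 4 were called in either genotype, and the differences shrank. In WT mice they became 1.28 and 1.38 for Prss3, 0.16 and 0.53 for Klk1, and 1.65 and 0.95 for Cckar. In KO mice they became 3.07 and 3.23 for Prss3, 0.91 and 1.27 for Klk1, and 1.83 and 1.14 for Cckar. Under these scalings the splits over all genes were 189 higher and 38 lower and 0 and 11 in KO, and 190 and 44 and 0 and 12 in WT mice. Without WT caerulein library 1, 499 of 1419 genes and 0 of the 4 were called in WT mice, with differences of 1.46 for Prss3, 1.23 for Klk1 and 2.86 for Cckar. In KO mice fewer genes of the whole table passed with a library left out, 19 of 1419 without library 1 and 400 of 1423 without library 3. Of the 4 genes, 1 was called without KO library 1, namely Prss3, while the differences of Klk1 (4.94, limma adjusted p = 0.05933) and Cckar (4.496, limma adjusted p = 0.05777) were larger than with it. Without KO library 3, Prss3 and Cckar were called, and Klk1 differed by 3.85 (limma adjusted p = 0.05116).

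As ratios of the listed values, Prss3 was 79.0 and 153 times saline in KO libraries 1 and 3, and 203 and 3.67 times saline in WT caerulein libraries 1 and 2. Klk1 was 15.9 and 33.9 times saline in the KO libraries and 63.0 and 2.49 times saline in the WT ones. In WT library 2 both stood below the median ratio of 7.74 among 863 genes above 0.01 in both libraries, whereas Cckar, at 22.1, stood above it. Cckar was 39.1 and 73.9 times saline in the KO libraries and 85.0 times saline in WT library 1.

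The other genes of cholecystokinin receptor signalling were sparse in the table, with 12 of 55 listed symbols measured, Cckar included. For KO against WT caerulein 0 of the 12 were called, and the list's median was 0.19 on the log2 scale, where that of the whole tested set was 0.10. Against saline 9 of 12 were called higher in each genotype, beside 60.3% of all genes in KO and 57.3% in WT mice. The list's median differences were 2.996 in KO and 2.65 in WT mice, against 2.80 and 2.71 for all genes. All 12 were higher in WT library 1 than in WT library 2, as were 1063 of the 1457 genes, with a median log2 ratio of 1.49 against 0.88.

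Among the 4 with the highest means, Calm2, which encodes the calcium sensor calmodulin, was 65.31 and 153.42 in KO libraries 1 and 3, 116.97 and 45.14 in WT caerulein libraries 1 and 2, and 11.13 in saline. It was highest in the same pair of libraries, KO 3 and WT 1, as Prss3, Klk1 and Cckar. Jun, a transcription factor induced by receptor stimulation, was 43.59 and 34.34 in KO, 41.82 and 37.25 in WT caerulein and 2.01 in saline. Rac1, a small GTPase of the actin cytoskeleton, was 40.34 and 31.33 in KO, 42.12 and 38.77 in WT caerulein and 2.04 in saline. Jun and Rac1 thus barely differed between the WT caerulein libraries. The 3 genes not called against saline in either genotype were Atp2b1, a plasma membrane calcium pump, Ppp3cb, a calcineurin subunit, and Rhoa, a small GTPase. They were named after their values were seen, and each was at 0.01 in saline and at most 1.12 in WT caerulein library 2.

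**Figure D5:**
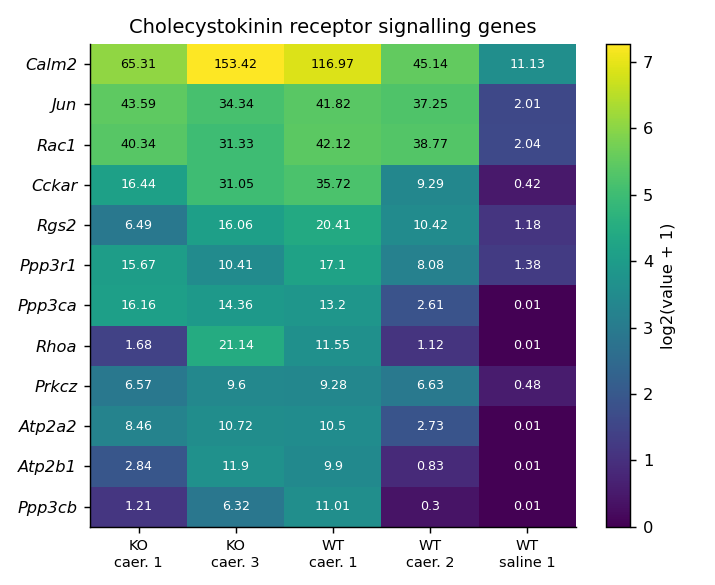
Deposited values (printed) and log2(value + 1) (colour) of the 12 measured cholecystokinin receptor signalling genes in the 5 libraries, ordered by mean value. Cckar resembles Calm2 in being highest in KO library 3 and WT library 1, while Jun and Rac1 are nearly level over the caerulein libraries.

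Genes of granule release and acinar identity were rarer still. Of 32 exocytosis symbols 2 were measured, and neither passed in any comparison. Vamp7, a vesicle fusion protein, was 3.74 and 9.25 in KO, 10.47 and 0.01 in WT caerulein libraries 1 and 2, and 0.01 in saline. Unc13b, a vesicle priming protein, was 3.15 and 5.43 in KO, 12.48 and 0.42 in WT caerulein and 0.01 in saline. Both were lowest among the caerulein libraries in WT library 2, where Prss3 and Klk1 were lowest too. Of 20 acinar transcription factor symbols 1 was measured, Rbpj, the Notch effector that belongs to PTF1 in the embryonic pancreas. It was 5.14 and 7.06 in KO, 18.69 and 2.39 in WT caerulein and 0.01 in saline, and was called against saline in WT mice (log2 difference 3.02, SE 1.36, limma adjusted p = 0.04725). In KO mice its difference was 2.80 (limma adjusted p = 0.06148), and the KO and WT difference was −0.22 (limma adjusted p = 0.9997).

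Lysosomal proteases, some of which can activate trypsinogen, were represented by 3 of 16 listed symbols. None of the 20 symbols listed for trypsin inhibitors and trypsinogen-activating proteases was among them. Ctss, cathepsin S, was 35.89 and 55.91 in KO, 54.18 and 25.45 in WT caerulein and 0.59 in saline. Lamp1, a lysosomal membrane protein rather than a protease, was 70.55 and 19.92 in KO, 41.86 and 20.97 in WT caerulein and 0.25 in saline. Both were called higher than saline in each genotype and neither between genotypes. Ctse, cathepsin E, was 5.04 and 0.38 in KO, 12.69 and 3.51 in WT caerulein and 0.01 in saline and passed in no comparison.

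The genes most like each member were found by the root mean square difference between profiles of log2(value + 1) over the 5 libraries, each centred on its own mean. Klk1 was closest to Prss3 (0.76, where the median over genes was 2.07), and Anxa10, an annexin, was also near (1.07). Anxa10 was 16.03 and 23.61 in KO, 12.32 and 0.01 in WT caerulein and 0.01 in saline. For Klk1 the nearest were Cd36, a fatty acid receptor (0.32), Nus1, needed for dolichol synthesis (0.50), and M6pr, a mannose 6-phosphate receptor (0.50; median 1.47). Cd36 was 8.62 and 16.9 in KO, 37.61 and 1.33 in WT caerulein and 0.01 in saline.

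Cckar was matched most closely by genes of wide expression. These were Malat1, a nuclear long non-coding RNA (0.10), Rab1b, a GTPase of transport from the endoplasmic reticulum (0.12), and Rpl23, a ribosomal protein gene (0.19; median 0.87). Malat1 was 175.28 and 277.46 in KO, 308.92 and 96.37 in WT caerulein and 12.91 in saline. Nearest to Prss1 were Hnrnph1, a splicing regulator (0.48), Set, a histone chaperone (0.65), and Vip, a gut and nerve peptide (0.72; median 1.69). Hnrnph1 was 75.7 and 107.84 in KO, 18.71 and 10.8 in WT caerulein and 17.46 in saline. Unlike Prss1, it was well above 0.01 in every WT library. Between the members, Prss3 and Klk1 were 0.76 apart, Klk1 and Cckar 0.92, and Prss1 at least 1.73 from each of the others.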

How the data were processed

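Poly(A) RNA of whole pancreas was fragmented, randomly primed and sequenced on an Illumina instrument, per the labels' protocols. Bowtie 0.12.2 and build mm8 are named in the submitters' processing notes. How genes were counted, annotated, normalized and selected is not given in the sources used here. Each deposited file holds a signal value, of no stated unit, for each of 1457 gene symbols, and 1 blank row, which was dropped. Values differ by as little as 0.01, the rounding of the files, so no step of whole reads was seen, depth is unknown, and the branch of the plan for normalized values was followed.

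Values were used as deposited, as log2(value + 1), a scale that understates the change of low genes. The 1429 genes that reached 1 in 2 or more libraries were fitted in limma 3.58.1 (R 4.3.3), with a mean for each group, all 5 libraries in the fit and a trended, robust variance. In each of the 3 comparisons, p-values were adjusted over these genes (Benjamini-Hochberg, threshold 0.05). The fit was tested on simulated data with the same independent spread for every gene. That simulation had no genes near 0.01 and no added likeness between single libraries, so it does not cover these features. Permutation tests used scipy 1.17.1, and transcript alignments Biopython 1.88. The members and gene lists were chosen with earlier results of these data known. Named genes are the members, the 3 genes closest to each, and measured genes of related lists (all of up to 5, otherwise the 4 of highest mean). A gene that this rule names is not reported here. Markers named for being at 0.01 in saline, and Col3a1, Atp2b1, Ppp3cb and Rhoa, fall outside the rule and were named after their values were seen. Alternatives were a pseudocount of 0.1, no filter, quantile normalization, equal sums without the 20 highest genes, only the groups compared, a variance without robustness, the sum of Prss1 and Prss3, and leaving out each caerulein library. Scaling the caerulein libraries by their median ratio was added after seeing the data.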

Additional observations from a re-analysis of the deposited data

How the results depend on the processing

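For KO against WT caerulein, leaving out a library gave 0 to 4 genes called and 0 to 1 of the 4 members. The differences ranged from −0.88 to 4.72 for Prss3, −1.44 to 3.17 for Klk1 and −0.64 to 1.20 for Cckar, whose value without KO library 3 was −0.16. For WT caerulein against saline the 819 genes became 12 with quantile normalization, 234 when library sums were made equal and 479 when only the groups compared entered the fit, and 499 to 1062 with a library left out. The 3 members called became 0 with quantile normalization, 0 with equal sums, and 0 to 3 with a library left out. For KO caerulein against saline the 863 genes became 11 and 227 under those scalings, and 19 to 400 with a library left out, while the 3 members became 0 and 0, and 1 to 2. Quantile normalization and equal sums moved the median log2 difference of all genes from 2.80 to 0.01 and 0.68 in KO and from 2.71 to 0.01 and 0.64 in WT mice, because they scale saline towards the other libraries. With the caerulein libraries scaled by their median ratio, Prss3 in WT mice missed the threshold (log2 difference 4.25, limma adjusted p = 0.06037). Using the sum of Prss1 and Prss3 gave 1.98 for KO against WT caerulein. Prss1 could not be tested without either KO library, nor in WT caerulein against saline alone, since it then failed the filter. No paired analysis was possible because the KO and WT caerulein libraries share only replicate number 1. Leaving out a library leaves the lone library of its group assumed to vary like the others. Unknown depth means that no counting interval can be given for values near 0.01.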

Other observations

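Markers of further cell types were thinly represented. Krt8, a keratin of both duct and acinar cells, was the only gene measured of 14 listed as ductal, so it does not mark ducts alone. It was 244.99 and 283.62 in KO libraries 1 and 3, 352.53 and 142.86 in WT caerulein libraries 1 and 2, and 7.78 in saline. Csf3r, the receptor for a neutrophil growth factor and the only one of 14 neutrophil markers, ran the other way, at 16.26 and 6.69 in KO, 8.09 and 21.82 in WT caerulein and 0.01 in saline. Vwf, of 10 endothelial markers, was 27.77 and 15.25 in KO, 10.15 and 22.93 in WT caerulein and 2.08 in saline. In KO library 1 and WT library 2, where Prss3, Klk1 and Cckar were low within their genotype, Csf3r and Vwf were high. Each was the only measured gene of its list. Of 9 macrophage markers, 7 were instead higher in WT library 1 than in WT library 2, and 2 were higher in KO library 3 than in KO library 1. Over all 1457 genes these counts were 1063 and 664.

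Of 16 islet markers, Pcsk2, a prohormone convertase, was 40.83 and 21.71 in KO, 9.70 and 9.73 in WT caerulein and 15.59 in saline, and Slc2a2, a glucose transporter, was 1.13 and 4.92, 1.01 and 0.01, and 10.32. Cd79a, of 12 lymphocyte markers, was 39.74 in KO library 1, 0.48 in KO library 3, 5.95 and 3.81 in WT caerulein and 8.80 in saline.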
